A study of Drosophila melanogaster with 7 samples.

Results

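The 8 genes described here are the intracellular and extracellular core of the Toll pathway of Drosophila: the ligand spz (Spätzle), the receptor Tl (Toll), the adaptors Myd88 and tub (Tube), the kinase pll (Pelle), the inhibitor cact (Cactus) and the transcription factors dl (Dorsal) and Dif. They were chosen by name and not by any measured value, and all 8 were found among the 14804 genes of the expression tables. The RasV12 group were offspring of Bx-GAL4 crossed to UAS-RasV12, in which dominant-active Ras is made in wing imaginal discs and salivary glands, and the control group were offspring of Bx-GAL4 crossed to W1118, so both groups carry the driver and differ by the transgene. The fat body itself is not named as a site of transgene expression. Each replicate was the fat body of 40 pooled wandering larvae, dissected without gonads, and there were 3 replicates of RasV12 and 3 of control. Larvae were grown on yeast-potato meal with no other treatment.

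In the Toll pathway a cascade of serine proteases cleaves Spätzle, which then binds the receptor Toll. The receptor assembles MyD88, Tube and the kinase Pelle, Cactus is degraded, and the NF-kappaB factors Dorsal and Dif move into the nucleus. In the larval fat body, the main organ of the fly's humoral response, this leads to transcription of antimicrobial peptide genes such as Drs (Drosomycin), and the same components pattern the dorsoventral axis of the embryo. The steps run through cleavage, binding and degradation of proteins, none of which is measured by RNA sequencing.

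None of the 8 components passed the test for a difference between RasV12 and control fat bodies. Transcript levels of all 8 stayed within a range of 1.31-fold to 2.16-fold over the 6 libraries, and the 95% interval of every fold change lay within a log2 limit of 1 on either side of no change, that is, within a fold of 2. This did not hold under 10 of 17 alternative settings, in which the interval of spz, or without scaling those of dl and Dif, reached past that limit. Dif had the highest log2 fold change, 0.43, and was the single component whose RasV12 libraries all lay above the control libraries. Values are FPKM, fragments per length of transcript and per number of mapped fragments, divided by a factor for each library that brings the 75th percentiles of the libraries to a common value. Fold changes are differences of the mean log2(scaled FPKM + 1), RasV12 minus control, tested with limma over the 7575 genes whose FPKM averaged 1 or more, and adjusted p-values are over all of these genes.

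The libraries differed in depth and in traces of other tissues. The bounds in the tables implied between 4.65e+06 and 7.31e+06 fragments in the RasV12 libraries and between 2.91e+06 and 7.33e+06 in the controls, with Control 3A the shallowest at a depth of 0.465 times that of Control 1. The 7 fat body markers (larval serum proteins and others) were all present, at a summed 66841 to 116034 scaled FPKM in RasV12 and 113833 to 171897 in control. Of 9 hemocyte markers in the tables, 7 were tested. An unadjusted limma p under 0.05 was reached by 5, all higher in RasV12, against 9.4% of all genes. Among these 5, Hml and He were listed at 0 in all 3 controls. Both passed the minimum level only through RasV12, so their sign was fixed in advance. CG8193, a prophenoloxidase gene, had a log2 fold change of -0.72. No hemocyte marker was called, and the sum over the list was 101 to 165 scaled FPKM in RasV12 and 58.9 to 106 in control. These sums overlapped through CG8193, with 1.14 in RasV12 1, the lowest RasV12 sum, and 44.9 in Control 2, the highest control sum. The plasmatocyte gene Hml had 13.877 and 10.977 scaled FPKM in RasV12 2 and 3, on up to 1489 fragments in a library. Hml was listed at 0 in RasV12 1 and in all 3 controls. A value of 0 may be a failed estimate, so absence of Hml from these libraries cannot be read from it. The crystal cell factor lz reached no more than 4 fragments in any library. Testis markers summed to 12.9 to 142 scaled FPKM in RasV12 and 0 to 5.97 in control. Other lists reached their highest sums in controls. Larval midgut markers summed to 0.979 to 2.23 in RasV12 and 1.34 to 192 in control. Muscle markers had 6.34 to 27.6 in RasV12 and 22.3 to 72.0 in control. Cuticle markers had 1.27 to 23.4 and 1.03 to 174, and salivary gland markers 7.21 to 11.7 and 7.40 to 23.6, in the same order. In bulk tissue, fewer cells of a type and less RNA per cell cannot be told apart. The sources do not say whether the replicates came from separate crosses, so p-values measure only the spread between these pools of larvae.

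**Figure D1:**
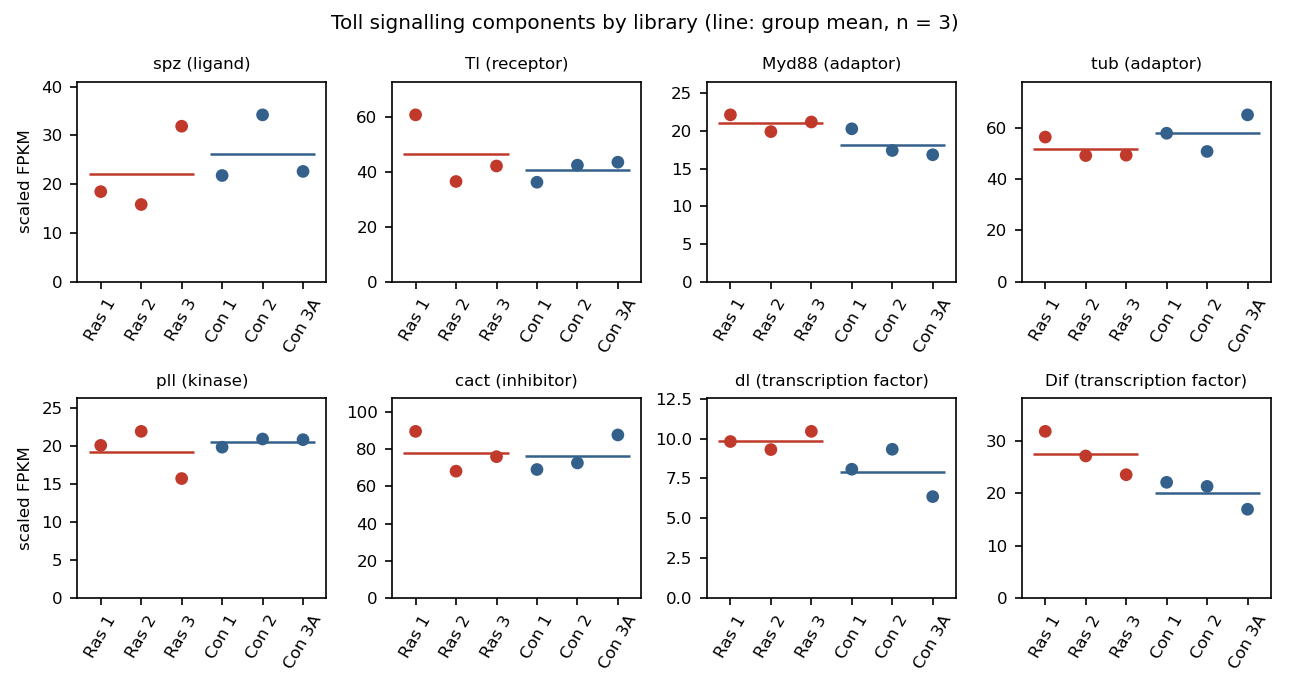
Scaled FPKM (vertical axis, from 0, with its own scale in each panel) of the 8 components in each of the 6 libraries, RasV12 in red and control in blue; horizontal lines are group means of 3 libraries. The groups share part of their range in every panel except that of Dif, where the lowest RasV12 library has 23.5 and the highest control has 22.1.

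The ligand spz (FBgn0003495, chromosome 3R, 22890792 to 22895790 in build BDGP5, minus strand) had 18.5, 15.8 and 31.9 scaled FPKM in RasV12 libraries 1, 2 and 3, against 21.8, 34.2 and 22.6 in Control 1, 2 and 3A. RasV12 3 and Control 2 stood high and the other 4 libraries lay together below them, so the groups overlapped. The means were 22.1 ± 8.61 in RasV12 and 26.2 ± 6.95 in control (SD, n = 3 each). The log2 fold change was -0.27 (SE 0.30, 95% interval -0.98 to 0.44), with a limma adjusted p of 0.770. It was -0.56 without RasV12 3, -0.08 without RasV12 2 and -0.07 without Control 2. Of the 8 components, spz varied most over the libraries, with a log2 range of 1.07 between its lowest and highest value.

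The receptor Tl (FBgn0003717, chromosome 3R, 22624765 to 22668125, plus strand) had 60.8, 36.5 and 42.2 scaled FPKM in RasV12 1, 2 and 3, against 36.2, 42.5 and 43.6 in Control 1, 2 and 3A. RasV12 1 alone stood above the rest, and the other 5 libraries lay close together. With means of 46.5 ± 12.7 in RasV12 and 40.8 ± 3.95 in control (SD, n = 3 each), the log2 fold change was 0.16 (SE 0.21, 95% interval -0.35 to 0.67; limma adjusted p = 0.813). Without RasV12 replicate 1 it was -0.05. A small nucleolar RNA gene, snoRNA:Me28S-U1554, lies within the span of Tl.

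Among the adaptors, Myd88 (FBgn0033402, chromosome 2R, 5191183 to 5196181, minus strand), which links the receptor to Tube and Pelle, had 22.2, 19.9 and 21.2 scaled FPKM in RasV12 1, 2 and 3, against 20.3, 17.4 and 16.9 in Control 1, 2 and 3A. Control 1 lay within the RasV12 range and the other controls below it. The log2 fold change was 0.21 (SE 0.13, 95% interval -0.10 to 0.51; limma adjusted p = 0.625), from means of 21.1 ± 1.12 in RasV12 and 18.2 ± 1.85 in control (SD, n = 3 each).

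The adaptor tub (FBgn0003882, chromosome 3R, 212967 to 215535, plus strand), which recruits the kinase, had 56.4, 49.2 and 49.3 scaled FPKM in RasV12 1, 2 and 3, against 57.9, 50.8 and 65.1 in Control 1, 2 and 3A. RasV12 2 and 3 were the lowest of the 6 libraries and Control 3A the highest, with RasV12 1 inside the control range. The log2 fold change was -0.16 (SE 0.15, 95% interval -0.52 to 0.20; limma adjusted p = 0.735), and its sign turned to 0.06 when the libraries were not scaled. It was -0.25 without Control 2 and -0.07 without Control 3A.

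The kinase pll (FBgn0010441, chromosome 3R, 23076853 to 23078902, minus strand) had 20.1, 22.0 and 15.7 scaled FPKM in RasV12 1, 2 and 3, against 19.9, 21.0 and 20.9 in Control 1, 2 and 3A. The controls lay within a narrow band, with a mean of 20.6 ± 0.597, while RasV12 3 lay below it and RasV12 2 above it, for a mean of 19.3 ± 3.19 (SD, n = 3 each). The log2 fold change was -0.10 (SE 0.15, 95% interval -0.46 to 0.26; limma adjusted p = 0.834), and without scaling its sign also turned, to 0.11. Its whole span of 2050 bases lies inside that of TfIIA-L, a general transcription factor gene, in the authors' annotation. In the newer annotation of build BDGP6 these genes share 31 exon bases on opposite strands. Whether the strand was used in assigning fragments is not given in the sources used here, so some of the signal of either gene could have been assigned to the other. TfIIA-L had 39.8, 48.1 and 35.3 scaled FPKM in RasV12 1, 2 and 3, against 37.7, 31.7 and 41.1 in Control 1, 2 and 3A.

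The inhibitor cact (FBgn0000250, chromosome 2L, 16313029 to 16326101, minus strand), which holds Dorsal and Dif in the cytoplasm and is itself known as a transcriptional target of the pathway in flies, had 89.6, 68.2 and 76.0 scaled FPKM in RasV12 1, 2 and 3, against 69.1, 72.6 and 87.7 in Control 1, 2 and 3A. Each group held 1 high library, and the ranges were nearly the same. The means were 77.9 ± 10.8 in RasV12 and 76.5 ± 9.86 in control (SD, n = 3 each), and the log2 fold change of 0.03 (SE 0.17, 95% interval -0.38 to 0.43; limma adjusted p = 0.968) was the closest to 0 of the 8. Its span overlaps that of fzy by 69 bases, and fzy was listed at 0 in all 6 libraries.

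The transcription factor dl (FBgn0260632, chromosome 2L, 17436830 to 17450360, minus strand) had 9.82, 9.31 and 10.5 scaled FPKM in RasV12 1, 2 and 3, against 8.08, 9.33 and 6.36 in Control 1, 2 and 3A. The groups overlapped only by Control 2, which exceeded RasV12 2 in the second decimal. The log2 fold change was 0.30 (SE 0.16, 95% interval -0.08 to 0.67; limma adjusted p = 0.592), from means of 9.86 ± 0.573 in RasV12 and 7.92 ± 1.49 in control (SD, n = 3 each). Its unadjusted p was under 0.05 only when Control 2 was left out.

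The transcription factor Dif (FBgn0011274, chromosome 2L, 17413248 to 17439923, minus strand), which together with Dorsal serves the immune branch of the pathway, had 31.8, 27.1 and 23.5 scaled FPKM in RasV12 1, 2 and 3, against 22.1, 21.3 and 16.9 in Control 1, 2 and 3A. Every RasV12 library lay above every control. The means were 27.5 ± 4.14 in RasV12 and 20.1 ± 2.76 in control (SD, n = 3 each), and the log2 fold change was 0.43 (SE 0.17, 95% interval 0.03 to 0.83), a fold of 1.35 with an interval of 1.02 to 1.78. The limma adjusted p was 0.531, so Dif was not called. Its unadjusted p was under 0.05 in the fit as described, and no longer so when RasV12 1, RasV12 2, Control 2 or Control 3A was left out or when the second sequencing run of control replicate 3 was used. Of the 7 tested hemocyte markers, 3 (eater, Pxn and crq) also had every RasV12 library above every control, against 7.67% of all genes. None of these markers had a limma adjusted p under 0.05. The summed levels of the list overlapped between the groups through CG8193, as given above. The part of hemocyte RNA in the value of Dif was not tested. In the authors' annotation the spans of Dif and dl, both on the minus strand, share 3094 bases, while in BDGP6 the model of Dif is shorter and lies 3668 bases from dl. The authors' span of Dif also overlaps those of CG15141, CG33928 and CG5043, and in BDGP6 it shares 252 exon bases with CG15141, on the opposite strand. CG15141 was the weaker gene, with 6.07, 5.84 and 4.15 scaled FPKM in RasV12 1, 2 and 3, against 5.41, 0 and 6.56 in Control 1, 2 and 3A.

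Across the 8 components 0 had an adjusted p under 0.05, where 8 of 7575 genes, 0.106%, passed that threshold. An unadjusted p under 0.05 was reached by 1 component, Dif, against 9.4% of all genes. Likewise 1 of the 8 had every RasV12 library above every control, against 7.67% of all genes. In a list of 8 genes a count of 1 is the smallest above 0, and neither count stands apart from its background. The 95% interval lay within a fold of 2 for 8 of 8 components and for 70.5% of all genes tested, but for 7 or, without scaling, 6 components under 10 of the 17 alternatives. The median log2 fold change was 0.09 over the components and 0.00 over all genes, 5 components had a positive and 3 a negative value, and the median range over the 6 libraries was 0.55 on the log2 scale, against 0.71 for all genes. The 3 genes of the cytoplasmic complex, Myd88, tub and pll, did not share a sign on the scaled values, while without scaling all 3 were positive. Both NF-kappaB factors had positive values, 0.43 for Dif and 0.30 for dl, next to 0.03 for their inhibitor cact, and over 17 alternative settings the lowest value was 0.32 for Dif and 0.16 for dl.

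**Figure D2:**
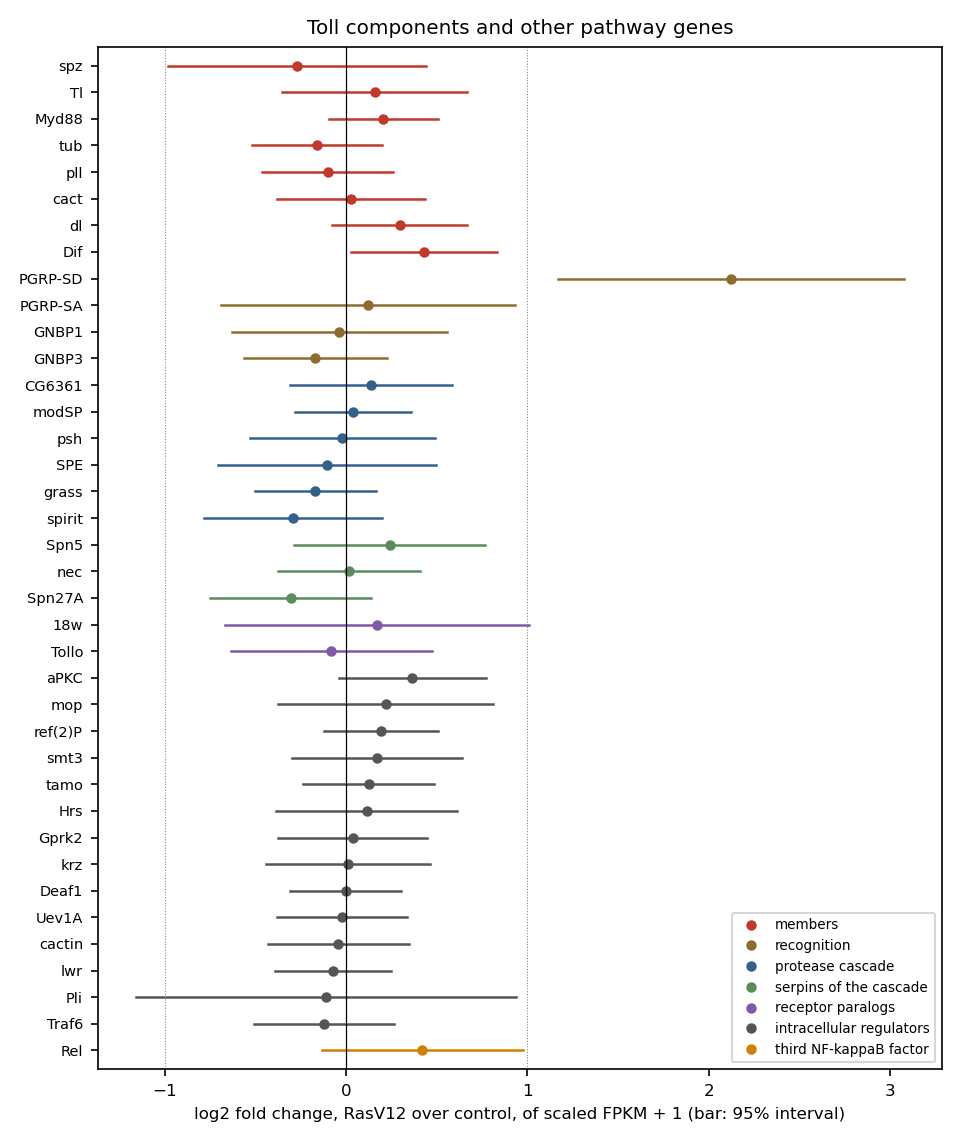
Log2 fold change (horizontal axis, RasV12 over control, of scaled FPKM + 1) with its 95% interval for the 8 components and the 30 other tested genes of the pathway, coloured by role; dotted lines mark a log2 change of 1 either way. The components all lie between the dotted lines, and PGRP-SD, at 2.12, is the only gene whose interval lies wholly beyond one of them.

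The count of components above every control depended on the scaling of the libraries. With FPKM as deposited the log2 fold changes of all tested genes had a median of 0.20, and 5 of the 8 components (Tl, Myd88, cact, dl and Dif) had every RasV12 library above every control, against 17.8% of all genes. No component was called on that scale either, the lowest limma adjusted p being 0.390, for Dif. Relative to the shift of the median, the unscaled log2 fold changes were 0.44 for Dif, 0.29 for dl, 0.22 for Myd88, 0.18 for Tl, 0.05 for cact, -0.09 for pll, -0.14 for tub and -0.26 for spz. These are close to the scaled values, and the plot of fold changes with and without scaling shows the shift common to all 8.

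**Figure D3:**
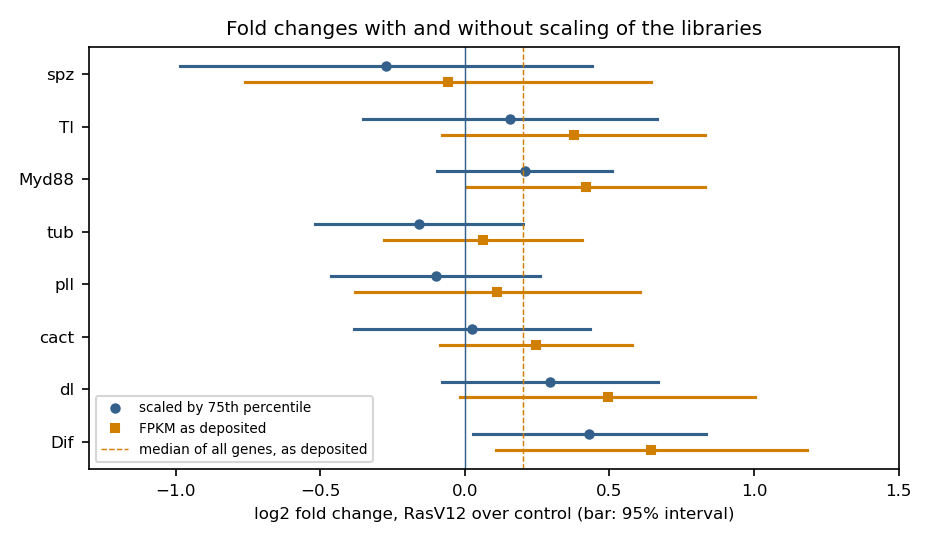
Log2 fold change (horizontal axis, RasV12 over control) of the 8 components with 95% intervals, from FPKM scaled by the 75th percentile (blue circles) and from FPKM as deposited (orange squares); the blue line marks 0 and the dashed line the median of all genes in the deposited values, 0.20. Every orange point lies to the right of its blue point, and those of tub and pll lie on the other side of 0.

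Levels of different genes can be compared in FPKM, which is per length of transcript. In RasV12 libraries the order of the means was cact, tub, Tl, Dif, spz, Myd88, pll and dl, and the ranges over libraries of tub and Tl, of Dif and spz, of spz and Myd88 and of Myd88 and pll overlapped. In control libraries the order was cact, tub, Tl, spz, pll, Dif, Myd88 and dl, with overlapping ranges for pll and Dif and for Dif and Myd88. The inhibitor was thus the most abundant transcript of the set in either group, and dl the least abundant, the highest mean being 7.90 times the lowest in RasV12 and 9.65 times in control. Against all genes tested, cact stood at percentile 85.3, tub at 81.1, Tl at 78.1, spz at 67.2, Dif at 66.9, pll at 63.0, Myd88 at 62.7 and dl at 41.2 of mean level. The places of Dif and pll differed most between the groups: Dif was the fourth in RasV12 and the sixth in control, and pll was the seventh in RasV12 and the fifth in control. The values rested on 39 to 1664 fragments per gene and library, fewest for dl in the shallow Control 3A.

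Ratios within a library do not depend on scaling, and they are given as a description. The level of cact was 2.15, 1.87 and 2.24 times the sum of dl and Dif in RasV12 1, 2 and 3, against 2.29, 2.37 and 3.76 times in Control 1, 2 and 3A. Every RasV12 library lay below every control, but Control 1 and 2 lay just above RasV12 3, and Control 3A stood far from the rest. The sum includes Dif, whose RasV12 libraries all lay above the controls, so this ratio is not independent of that result. The means were 2.09 ± 0.191 in RasV12 and 2.81 ± 0.827 in control (SD, n = 3 each), a log2 difference of -0.39 that was -0.16 without Control 3A.

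Of the other ratios, tub over Myd88 was 2.55, 2.47 and 2.33 in RasV12 1, 2 and 3, against 2.85, 2.92 and 3.86 in Control 1, 2 and 3A, again without overlap and again with Control 3A highest. Dif over dl overlapped between groups, at 3.24, 2.91 and 2.25 in RasV12 1, 2 and 3, against 2.73, 2.28 and 2.66 in Control 1, 2 and 3A. Receptor over ligand, Tl over spz, was 3.29, 2.31 and 1.32 in RasV12 1, 2 and 3, against 1.66, 1.24 and 1.93 in Control 1, 2 and 3A, and it varied more among RasV12 libraries than between the groups. The ratio of tub to pll also overlapped. How often ratios of other gene pairs do not overlap was not worked out, so those without overlap have no background. Exact permutation of 3 against 3 libraries cannot go below 0.1 for any of them.

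**Figure D4:**
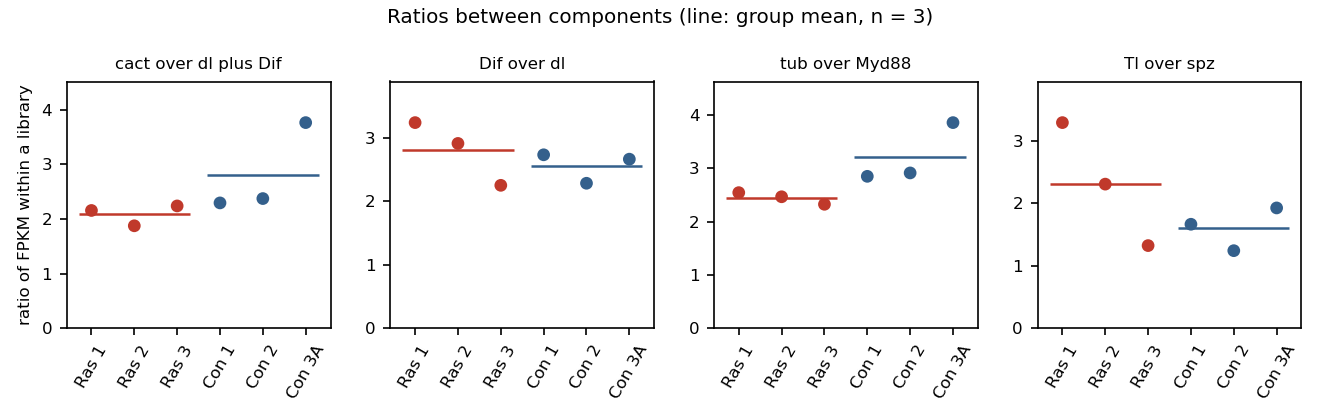
Ratio of FPKM between components within each library (vertical axis, from 0, no unit), RasV12 in red and control in blue, with group means of 3 libraries as lines. In the ratio of cact to dl plus Dif the RasV12 libraries lie at or below 2.24 and the controls at or above 2.29, with Control 3A at 3.76.

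Several components lie on the same chromosome arm. On chromosome 3R, spz lies 223 kb from Tl and 181 kb from pll, and on 2L the genes Dif and dl adjoin while cact lies 1087 kb away from Dif. The 3 genes whose profile over the 6 libraries was most like that of spz, the component with the widest range, were CG12859, CoVa (a cytochrome c oxidase subunit) and CG9706, with root mean square differences of 0.061, 0.071 and 0.073 on the log2 scale after each gene was centred on its mean. CoVa had 139.6, 121 and 218 scaled FPKM in RasV12 1, 2 and 3, against 159, 225 and 172 in Control 1, 2 and 3A, high in RasV12 3 and Control 2 as spz was. These genes were picked for that likeness out of all genes tested, so it is no result about them.

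The pathway outside the 8 components was followed with a list of 47 other genes in 7 roles, of which 46 were found and 30 tested. None was called, against 0.106% of all genes, and the median log2 fold change was 0.01. An unadjusted limma p under 0.05 was reached by 1 (PGRP-SD, higher in RasV12), against 9.4% of all genes. The 95% interval lay within a fold of 2 for 27 of the 30, against 70.5% of all genes.

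Upstream of spz, the recognition gene PGRP-SD, a secreted peptidoglycan recognition protein, had 165, 166 and 299.9 scaled FPKM in RasV12 1, 2 and 3, against 28.1, 45.4 and 74.0 in Control 1, 2 and 3A. The groups did not overlap, and the log2 fold change was 2.12 (SE 0.40), but the limma adjusted p was 0.229. GNBP3, a sensor of fungal glucans, had a log2 fold change of -0.17 (adjusted p = 0.739). Of the proteases that lead to Spätzle cleavage, spirit had -0.29 (adjusted p = 0.663) and grass -0.17 (adjusted p = 0.701). The proteases of the embryonic cascade, gd, snk, ea and ndl, had no more than 7 fragments in any library. The serpin Spn27A, an inhibitor of the melanization and dorsoventral proteases, had 112, 78.7 and 111 scaled FPKM in RasV12 1, 2 and 3, against 114.8, 127 and 127 in Control 1, 2 and 3A, a log2 fold change of -0.30 (adjusted p = 0.625) with no overlap. Spn5, now called Spn88Ea, had 0.24 (adjusted p = 0.725).

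The 5 ligand paralogs NT1, spz3, spz4, spz5 and spz6 had no more than 4 fragments in any library and were not tested, so that spz was the single gene of its family to reach the minimum level at this depth. Of 8 receptor paralogs, 18w and Tollo passed the minimum level, with log2 fold changes of 0.17 (adjusted p = 0.885) and -0.08 (adjusted p = 0.921), and of the other 6 Toll-7 had the most fragments, 61 in a single library. All 14 intracellular regulators were tested. The kinase aPKC had the smallest p, with 9.14, 7.61 and 6.92 scaled FPKM in RasV12 1, 2 and 3, against 7.01, 4.89 and 5.87 in Control 1, 2 and 3A, a log2 fold change of 0.36 (adjusted p = 0.567) with overlap. It was followed by ref(2)P, the fly p62 homologue, with 124, 119 and 129.5 in RasV12 1, 2 and 3, against 112, 105 and 109 in Control 1, 2 and 3A, a log2 fold change of 0.19 (adjusted p = 0.658) with no overlap. Rel, the NF-kappaB factor of the Imd pathway, had 95.3, 74.2 and 129 scaled FPKM in RasV12 1, 2 and 3, against 68.0, 66.0 and 83.6 in Control 1, 2 and 3A, with a log2 fold change of 0.42 (SE 0.23, adjusted p = 0.599), close in size to that of Dif.

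Downstream, 13 genes known as targets of the pathway were measured, most of them small secreted peptides. The authors describe Drs as under the control of the Imd as well as the Toll pathway. They also label it Toll-regulated and use it as a proxy for Toll activation. With both pathways acting on it, the level of Drs does not report on Toll alone. None of the 13 was called. All had positive log2 fold changes with a median of 3.05, and 10 had an unadjusted limma p under 0.05, against 9.4% of all genes. The list was written with earlier results of these data known, and the study had reported IM peptides among its changed genes. IM1 and IM4 had a control mean of 0, CG15067 of 0.38 and IM23 of 0.62 scaled FPKM. These genes passed the minimum level only through RasV12, so their sign was fixed in advance. The counts are therefore a description and no independent evidence. The summed level of the 13 was 2350 to 6035 scaled FPKM in RasV12 and 605 to 1438 in control. The lowest RasV12 sum was that of RasV12 3, where Mtk alone had 1260, so the gap between the groups rested there on that gene. Drs had 2419, 2098 and 479 scaled FPKM in RasV12 1, 2 and 3, against 152, 259 and 662 in Control 1, 2 and 3A, so that RasV12 3 lay within the control range, and its log2 fold change was 2.18 (SE 0.77, limma adjusted p = 0.510).

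The peptide gene IM3 had 555, 915 and 29.8 scaled FPKM in RasV12 1, 2 and 3, against 10.1, 44.4 and 21.1 in Control 1, 2 and 3A. IM2 had 172, 517 and 3.43 in RasV12 1, 2 and 3, against 0, 8.53 and 0 in Control 1, 2 and 3A, and IM14 had 208, 514 and 0 in RasV12 1, 2 and 3, against 0, 22.6 and 0 in Control 1, 2 and 3A. In all of these RasV12 1 and 2 were high and RasV12 3 was at the level of the controls, though the 0 of IM14 may be a failed estimate. Other targets differed: 5 of the 13 (Mtk, CG16836, CG13422, IM10 and IM1) had every RasV12 library above every control, against 7.67% of all genes. Of these, IM1 was listed at 0 in every control. IM10 had 44.9 in RasV12 3 and 36.4 in the highest control, and CG16836 had 17.3 and 12.8. The values of IM14 rested on no more than 24 fragments in any library, against up to 824 for IM3 and 761 for IM2. When RasV12 3 was left out, 7 of the 13 targets were called, where 61 of 7592 genes, 0.803%, were called. The 7 were IM1, IM3, IM4, IM23, CG13422, CG15067 and CG16836. RasV12 3 is the library in which most targets lay near the controls, so these calls follow from leaving it out. Under the other 16 alternatives 0 pathway or target genes were called. IM1, IM4, IM23 and CG15067 were tested only through their RasV12 values. Without RasV12 3 none of the 8 components was called, the lowest limma adjusted p being 0.230, for Dif.

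**Figure D5:**
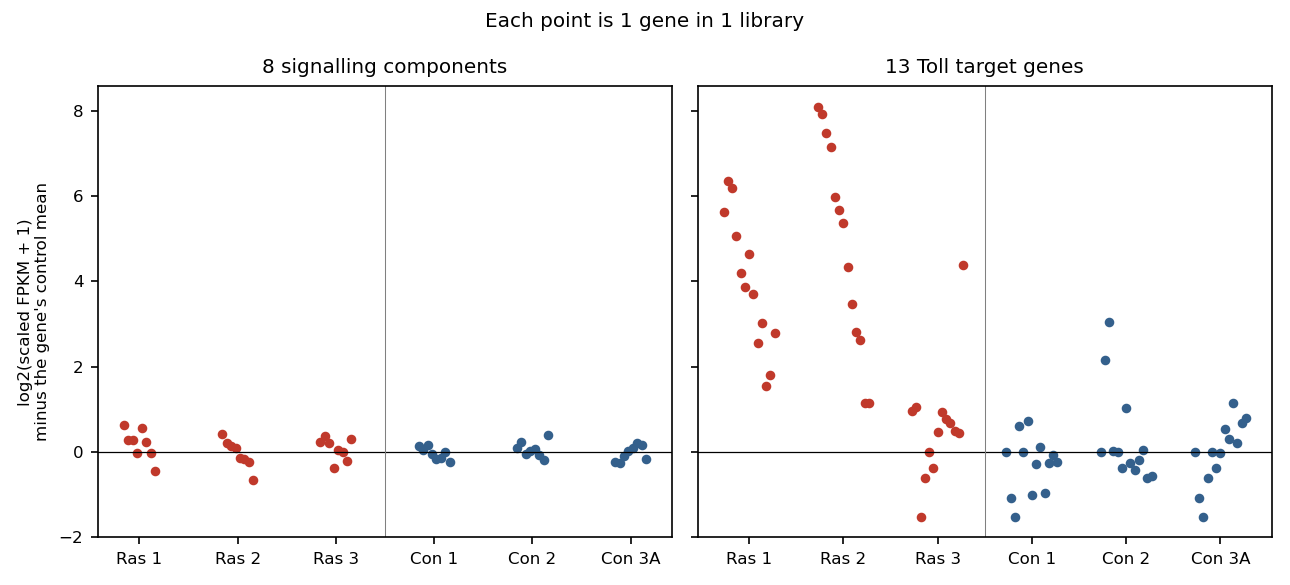
Difference of log2(scaled FPKM + 1) from the control mean of the same gene (vertical axis) for the 8 signalling components (left) and the 13 target genes (right) in each library; each point is 1 gene, genes are set side by side within a library in the order of their value in RasV12 2, RasV12 is red and control blue. The components lie near 0 in all 6 libraries, while most targets stand well above 0 in RasV12 1 and 2, the lowest in RasV12 2 being Mtk and CG18067, and mostly near 0 in RasV12 3, where a single gene, Mtk, is high.

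The split of RasV12 3 from RasV12 1 and 2 in the targets had no common counterpart in the components. RasV12 3 was the highest RasV12 library for spz and dl, the lowest for pll and Dif, and between the others for Tl, Myd88 and cact, while its value for tub nearly equalled that of RasV12 2. The target Mtk (Metchnikowin) had the opposite pattern to Drs, with 418, 132 and 1260 scaled FPKM in RasV12 1, 2 and 3, against 50.2, 39.5 and 104 in Control 1, 2 and 3A. It was chosen for mention after its values were seen.

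Control replicate 3 was sequenced in 2 runs. For all 8 components the bounds of the values in run 3A and in the re-sequenced run 3B overlapped, with ratios of 3A to 3B between 0.827 and 1.48. The value of cact over dl plus Dif was 3.56 in run 3B and 3.76 in run 3A.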

How the data were processed

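Fat body RNA was sequenced on an Illumina HiSeq instrument as paired-end mRNA libraries. Per the labels and the study's methods, the authors aligned reads with TopHat 1.0.14 to build BDGP5 and estimated gene levels with Cufflinks 0.0.5; the deposited values are FPKM per gene with lower and upper bounds, 14804 genes per library (14769 for run 3B), and no counts. Fragments behind a value were worked out from those bounds, so they are approximate, and a value of 0 may be a failed estimate. The authors' own Cuffdiff comparisons (fold changes and p-values) were not used.

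Each library's FPKM was divided by a factor from its 75th percentile, genes with a mean FPKM under 1 were left out, and limma 3.58.1 (lmFit, eBayes with trend, R 4.3.3) was run on log2(scaled FPKM + 1), with Benjamini-Hochberg adjustment over 7575 genes and a call at an adjusted p of 0.05. The script was tested on simulated data. Exact permutation of 3 against 3 libraries cannot go below 0.1. Run 3A stood for control replicate 3, with run 3B and the merged table as alternatives, since both runs are 1 replicate. Samples were grouped by the labels.

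The genes named are the 8 components; in each role of the pathway list those with an adjusted p under 0.05 or, with none, the 2 with the smallest p; Drs and the 3 IM genes with the highest mean; the 3 nearest profiles of the component with the widest range; and genes overlapping a component. The members, gene lists and tests were chosen with earlier results of these data known. Same-numbered RasV12 and control libraries did not deviate together, so the numbers were not treated as pairs. Gene positions are those of the files with 1 added to the start, which there counts from 0, and strands and exon overlaps are from BDGP6.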

Additional observations from a re-analysis of the deposited data

How the results depend on the processing

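Over 17 alternatives (11 other settings and 6 that left out a library) 0 of the 8 components was called, and the lowest adjusted p of any component ranged from 0.230 to 0.910 (0.531 as reported). The count of all genes called was 8 as reported, 16 with array weights, 5 with a pseudocount of 5 or with run 3B, 3 with the replicate block, and from 5 to 61 when a library was left out, 61 being without RasV12 replicate 3. Under the replicate block 0 components were called. The same-numbered libraries had correlations of their deviations of 0.0879, -0.168 and -0.15, and the numbers do not pair them. The count of components with every RasV12 library above every control, added after seeing the data, was 5 without scaling and ranged from 1 to 3 when a library was left out. The count of pathway and target genes called ranged from 0 to 7, the 7 being without RasV12 replicate 3. The number of components that kept their place in the order of mean levels over the libraries ranged from 4 to 8 when a library was left out, with 4 without Control replicate 2 and without Control replicate 3. The sign of a log2 fold change turned for tub without scaling (0.062), for pll without scaling (0.11) and with run 3B (0.043), and for cact with run 3B (-0.0078). When a library was left out, log2 fold changes ranged from -0.56 to -0.071 for spz, from -0.052 to 0.31 for Tl, from 0.16 to 0.28 for Myd88, from -0.25 to -0.073 for tub, from -0.20 to 0.028 for pll, from -0.082 to 0.13 for cact, from 0.16 to 0.41 for dl and from 0.32 to 0.53 for Dif. The cause of these shifts was not tested. FPKM keeps no read counts, and the shallow Control 3A, with 39 fragments behind dl, limits the precision of the lowest values. The intervals come from the spread between 3 libraries per group, moderated by limma with a trend over all genes tested. Noise from depth is part of that spread and was not separated from it.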
